A study of Mus musculus with 6 samples.

Results

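The 83 nuclear genes named for subunits of oxidative phosphorylation complexes I to V were described in megakaryocytes of leukaemic and healthy mice. The set was proposed with earlier results of these data known, and its members follow from a rule on names: single platform gene symbols beginning with Ndufa, Ndufb, Ndufc, Ndufs or Ndufv and a digit, Sdha to Sdhd, Uqcr, Cox4 to Cox8, or Atp5, without the Ndufaf assembly factors and without symbols containing -ps. Of 30063 named genes these were 35 of complex I, 4 of complex II, 8 of complex III, 18 of complex IV and 18 of complex V. Platform symbols were replaced by RefSeq's where these differ, so that Atp5f1 is given as Atp5pb. The name rule also took in Dmac2, listed by the platform as Atp5sl and known as a complex I assembly factor, and Atp5l2-ps, a pseudogene in RefSeq. Ndufb1, Ndufb4 and Ndufa11 were not analysed here as single genes.

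Megakaryocytes are polyploid cells of the marrow from which platelets are shed. Cells with high side scatter, high CD41 and a DNA content of at least 8N were sorted from the marrow of female C57 mice into Trizol, and their total RNA was hybridised to an Affymetrix array. One group was mice with acute myeloid leukaemia (AML) induced by MLL-AF9, a fusion oncogene, and the other was healthy controls, with 3 arrays each, labelled biological replicates. The labels give neither the ages nor the way the leukaemia was induced nor how many animals stand behind a sort, so that p-values reflect only how far these samples spread, which may be technical. Values are the deposited log2 expression levels. Differences are AML minus control with the standard error (SE) of limma's linear model, whose p-values were adjusted by Benjamini-Hochberg over all named genes, with a threshold of 0.05. "Rose" and "fell" are used only of genes past it. Levels of different genes come from different probes and are not ranked against each other.

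Oxidative phosphorylation takes place in the inner mitochondrial membrane. Complex I takes electrons from NADH and complex II from succinate, both pass them to ubiquinone, complex III hands them through cytochrome c to complex IV, and complex IV reduces oxygen. Complexes I, III and IV pump protons, and complex V, the ATP synthase, uses the returning protons to make ATP. Complex II is encoded wholly in the nucleus, whereas the other complexes also hold subunits made from mitochondrial DNA. Several complex IV subunits and the c subunit of complex V come in isoforms encoded by separate genes, some of them largely restricted to testis, heart, skeletal muscle or lung.

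Most subunit genes differed little between leukaemic and healthy megakaryocytes. One member rose (Cox6b2), 3 fell (Cox7a1, Sdhb and Ndufb4b) and 79 did not pass the threshold, so that 4.82% of members were called against 10.7% of all genes tested (4.49% higher and 6.25% lower in AML). Among genes at or above the median level, where nearly all members lie, 5.09% were called higher and 11.2% lower. The 95% confidence interval of the difference lay within 1.5-fold in either direction for 78 of 83 members, or 94.0%, against 73.8% of all genes. The differences of the members that were not called ran from -0.27 to 0.34 on the log2 scale. Only Cox6b2 and Cox7a1, both tissue-restricted isoforms of complex IV, differed by more than 0.5. In sorted populations such as these, a lower share of cells expressing a gene and less of its RNA per cell cannot be told apart.

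In the deposited scaling the members as a whole sat slightly low relative to the other genes. After renewed quantile normalization the medians of complexes I, III, IV and V relative to all genes stood above zero, as given below. As deposited, the median difference of the members was -0.06 against 0.11 over all genes, where the values carry a shift between the groups. Of the 83 members, 72 (86.7%) lay below the median of all genes. Of the genes at or above the median level 61.2% lay below it too, with a relative median of -0.07. The 3 AML and 3 control values did not overlap for 25 members (30.1%), 6 higher and 19 lower in AML. Over all genes the same held for 41.3%, with 28.2% higher and 13.1% lower. Among genes at or above the median level 22.3% were lower without overlap, close to the 22.9% of members. At an unadjusted limma p under 0.05 the members held 13 genes (15.7%), against 32.8% of all genes, and the counts at an unadjusted p given for complexes and lists are to be read beside that share. The mean level of 80 members reached the median over all genes, and 3 (Ndufa4l2, Cox7b2 and Cox8b) had neither group mean above 5.51, the 95th percentile of 1528 olfactory and vomeronasal receptor genes.

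**Figure D1:**
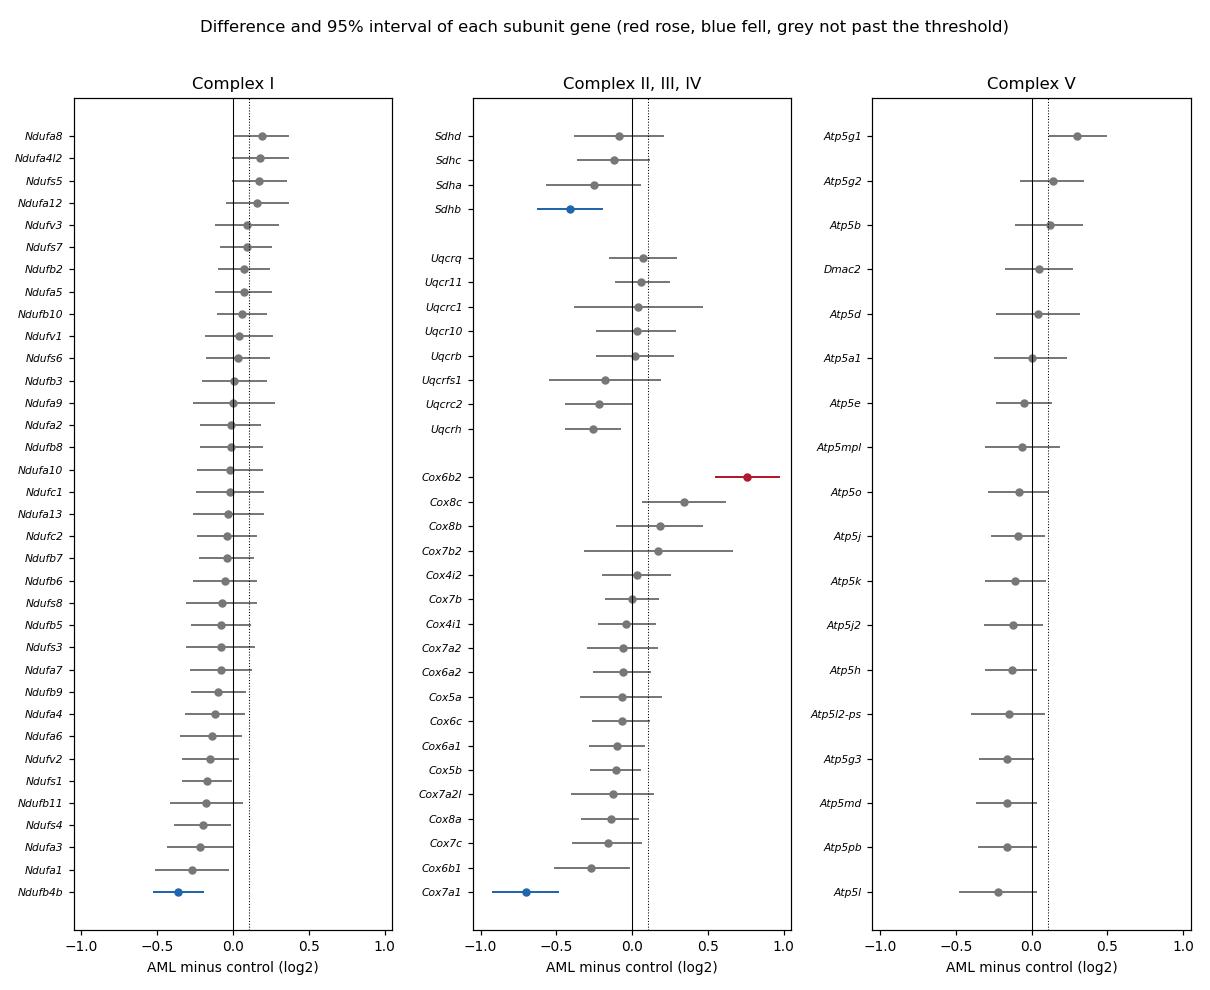
Difference (AML minus control, log2 units, horizontal axis) and 95% confidence interval of each of the 83 subunit genes, grouped by complex, with zero as a solid line and the median difference of all genes (0.11) as a dotted line. Cox6b2 (0.76, red) and Cox7a1 (-0.70, blue) lie apart from the other members, Sdhb and Ndufb4b are the other blue genes, and grey genes did not pass the threshold.

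The median differences of the complexes lay between -0.19 and 0.02. They were -0.03 for complex I, -0.19 for complex II, 0.02 for complex III, -0.07 for complex IV and -0.09 for complex V. Relative to all genes these were -0.13, -0.30, -0.08, -0.17 and -0.19. After renewed quantile normalization of the arrays the relative medians of complexes I, III, IV and V stood at 0.04, 0.14, 0.00 and 0.03, and only that of complex II stayed below zero, at -0.13. The sign of a complex's shift therefore depended on the scaling for these 4 complexes.

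On single arrays the complex I median level was 8.30, 8.17 and 8.18 in AML and 8.23, 8.21 and 8.34 in control. That of complex III was 8.22, 8.12 and 7.99 against 7.98, 8.19 and 8.31. In both complexes the groups overlapped. After subtraction of each array's median over all genes, complex V stood at 2.91, 2.95 and 2.86 in AML and at 2.99, 3.13 and 3.19 in control, which do not overlap by a narrow margin. The complex II median less the array median was 1.84, 1.80 and 1.56 in AML and 1.83, 1.93 and 2.14 in control. AML replicate 3 was the lowest of the 6 arrays there. That array also had the lowest limma array weight, 0.29, where the other 5 arrays had weights from 0.71 to 2.70.

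**Figure D2:**
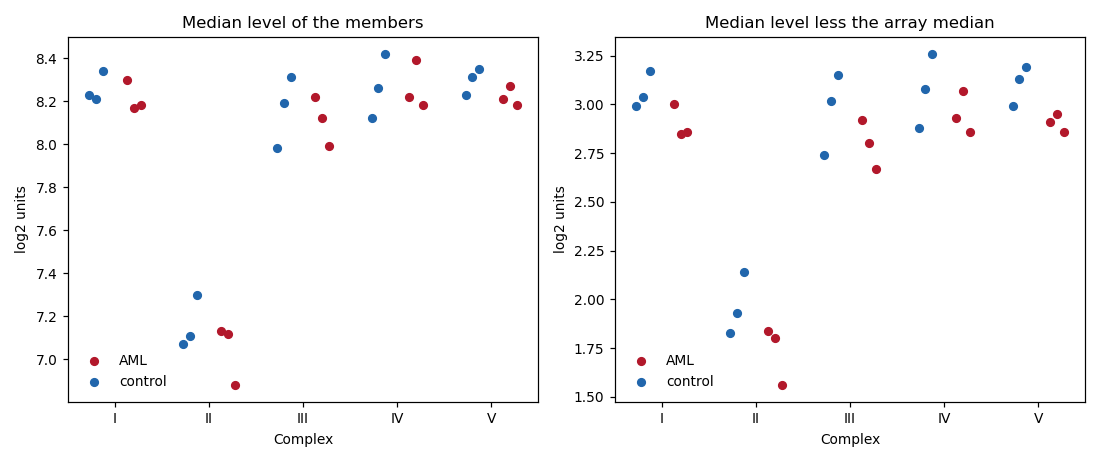
Median log2 level of the members of each complex on each array (left) and the same less the array's median over all genes (right), with AML in red and control in blue. The groups overlap in complexes I and III on both scales, and all 3 AML arrays lie below all 3 control arrays in complex V only after the array median is subtracted.

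Complex I had 1 called member. Of its 35 members none rose, 1 fell and 34 did not pass, with 6 at an unadjusted limma p under 0.05, and all 35 intervals lay within 1.5-fold. Its matrix arm carries the flavin and the iron-sulfur clusters that move electrons, and its 15 measured listed members had a median difference of -0.01 with none past the threshold (2 at an unadjusted p under 0.05). The membrane arm holds the proton channels and most accessory subunits, and its 17 measured listed members had a median of -0.03, also with none past it (3 at an unadjusted p under 0.05).

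The member of complex I that fell was Ndufb4b, a copy gene of Ndufb4, which encodes a membrane-arm accessory subunit. Its level was 9.11, 9.10 and 9.17 in the AML arrays and 9.46, 9.51 and 9.50 in the controls. Every AML value lay below every control value, and the spread within either group was small. The means were 9.13 ± 0.04 and 9.49 ± 0.03 (SD, n = 3 each), a difference of -0.36 with an SE of 0.07, and limma's adjusted p was 0.0192. The call was lost without AML replicate 1 (0.0606), AML replicate 2 (0.0675), control replicate 2 (0.0975) or control replicate 3 (0.0807), and with the replicate number as a block (0.0935).

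Ndufb4b has near-identical copies, so its single value is uncertain. Ndufb4c, another copy that the name rule does not assign to the members, read 6.34, 6.35 and 6.40 in AML and 6.63, 6.65 and 6.67 in control. It fell by 0.28 with limma's adjusted p at 0.0374, and this call was lost without AML replicate 1 or 2 or any 1 of the controls (highest adjusted p 0.144). The row shared by Ndufb4 itself and Gm3244 differed by -0.23 with an adjusted p of 0.159 in limma's fit over every row. Ndufb4b lies within Dock8 in RefSeq, and Dock8 differed by -0.25 (limma's adjusted p 0.246). These copies and Dock8 were picked with their values known.

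The other complex I genes named by the rule did not pass. Ndufa2, a matrix-arm accessory subunit, stood at 10.62 ± 0.08 in AML and 10.63 ± 0.09 in control (SD, n = 3 each). Ndufa1, a small membrane-arm subunit needed for assembly, read 10.28, 10.44 and 10.10 in AML and 10.50, 10.49 and 10.64 in control. Its groups did not overlap, by a narrow margin, and its adjusted p in limma was 0.123. Ndufa8, an accessory subunit on the intermembrane side, read 8.57, 8.57 and 8.50 in AML and 8.35, 8.45 and 8.29 in control, the largest difference above zero of the complex at 0.19 (limma's adjusted p 0.138). Ndufa4, now known to belong to complex IV, differed by -0.12 (limma's adjusted p 0.304), and its paralog Ndufa4l2, which is known to be induced by hypoxia, by 0.18 (0.156) at a level not above the receptor genes.

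Ndufs4, Ndufs1 and Ndufs5 were picked with their values known. Ndufs4, an accessory subunit of the matrix arm, differed by -0.20 (limma's adjusted p 0.129), and Ndufs1, which carries iron-sulfur clusters, by -0.17 (0.138). Ndufs5, on the intermembrane side, differed by 0.17 (0.158). Their groups did not overlap.

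Complex II, succinate dehydrogenase, is also an enzyme of the tricarboxylic acid cycle. One of its 4 members fell (25.0%, against 10.7% of all genes called in either direction). The differences of all 4 were below zero as reported, as were 9394 of 30063 over all genes and 6827 of 15032 at or above the median level. That of Sdhd reached 0.05 in alternatives. Sdhb, the iron-sulfur subunit, read 8.20, 8.08 and 8.03 in AML and 8.44, 8.46 and 8.65 in control. The groups did not overlap, and the means were 8.10 ± 0.09 and 8.52 ± 0.12 (SD, n = 3 each). The difference of -0.41 had an SE of 0.09 and a 95% interval of -0.62 to -0.20, and limma's adjusted p was 0.0328. The call was lost without any 1 of the AML replicates 1 (0.0521), 2 (0.0938) and 3 (0.0530), without control replicate 2 (0.102) or 3 (0.109), and with the replicate number as a block (0.115).

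The 3 other complex II genes did not pass. Sdha, the flavoprotein subunit that oxidises succinate, read 6.68, 6.51 and 6.29 in AML and 6.56, 6.83 and 6.86 in control, a difference of -0.25 (limma's adjusted p 0.205). Sdhc, one of the membrane anchors, read 6.85, 6.75 and 6.54 against 6.82, 6.79 and 6.92 (-0.12, 0.384). Sdhd, the other anchor, read 7.42, 7.49 and 7.22 against 7.32, 7.39 and 7.68 (-0.09, 0.614). The groups overlapped in each of the 3, and the lowest value of each was that of AML replicate 3. Within an array, Sdhb less the mean of the other 3 genes was 1.22, 1.16 and 1.35 in AML and 1.54, 1.46 and 1.5 in control. This contrast was chosen after the values were seen, and its change of -0.26 is a 1.19-fold shift within the complex.

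Complex III had no member past the threshold and 1 of 8, Uqcrh, at an unadjusted limma p under 0.05. Uqcrh, the hinge protein at the cytochrome c docking side, read 9.49, 9.46 and 9.38 in AML and 9.64, 9.66 and 9.80 in control. All AML values were the lower ones, and the difference was -0.26 with an SE of 0.08 and an adjusted p of 0.0741 in limma. It passed in 3 of 18 alternative settings: array weights (0.0455), median centring (0.0379) and cyclic loess (0.0466). Uqcrq, a small subunit near the ubiquinone sites, had the largest difference above zero of the complex, 0.07, from levels of 9.63 ± 0.06 against 9.56 ± 0.15 (SD, n = 3 each). Of the core and Rieske iron-sulfur subunits, chosen after their values were seen, Uqcrc1 differed by 0.04, Uqcrc2 by -0.22 and Uqcrfs1 by -0.18, with limma's adjusted p at 0.874, 0.158 and 0.415.

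Complex IV held the largest rise and the largest fall among all members, both in tissue-restricted isoform genes. Cox6b2 encodes the testis isoform of a subunit on the intermembrane face. Its level was 7.69, 7.92 and 7.65 in AML and 7.03, 7.0 and 6.95 in control. Every AML array stood above every control array, with means of 7.75 ± 0.14 and 6.99 ± 0.04 (SD, n = 3 each). The difference was 0.76 with an SE of 0.09 and a 95% interval of 0.55 to 0.97, which is 1.69-fold, and limma's adjusted p was 0.004. Cox6b1, the broadly expressed isoform, read 9.21, 9.26 and 9.15 in AML and 9.35, 9.39 and 9.68 in control, a difference of -0.27 that did not pass (limma's adjusted p 0.128).

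Cox7a1 encodes the heart and muscle isoform of another small subunit. Its level was 6.75, 6.59 and 6.80 in AML and 7.32, 7.42 and 7.52 in control, again without overlap, and here the AML arrays were the lower ones. The means were 6.71 ± 0.11 and 7.42 ± 0.10 (SD, n = 3 each). It fell by 0.70 on the log2 scale with an SE of 0.09 and a 95% interval of -0.92 to -0.49, which is 1.63-fold, and limma's adjusted p was 0.00522. Cox7a2, the broadly expressed isoform, read 10.89, 11.06 and 10.78 in AML and 10.93, 10.91 and 11.07 in control, with a difference of -0.06 (limma's adjusted p 0.655). Cox7a2l, a paralog known for its role in respiratory supercomplexes, differed by -0.13 (0.423). Cox6b2 and Cox7a1 passed the threshold in all 18 alternative settings, with differences of 0.64 to 0.89 and -0.82 to -0.60 and adjusted p up to 0.0273 and 0.0342.

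The proximal promoters of 4 of these genes are shown so that the sequence before 2 isoform genes that moved in opposite directions can be compared with that of a broad isoform and of Sdhb. Each run is the 130 bases before the RefSeq start (assembly GRCm38.p6), 5′ to 3′ on the strand of the gene, with capitals marking matches to the motifs described further on. The stretches are chr7:4753095-4753224 on the minus strand for Cox6b2, chr7:30626115-30626244 on the minus strand for Cox6b1, chr7:30184041-30184170 on the plus strand for Cox7a1 and chr4:140961141-140961270 on the plus strand for Sdhb. All 4 lie upstream of the gene and overlap no annotated gene.
Cox6b2: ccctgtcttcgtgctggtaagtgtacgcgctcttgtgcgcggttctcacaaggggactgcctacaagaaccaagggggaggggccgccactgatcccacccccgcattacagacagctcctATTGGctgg
Cox6b1: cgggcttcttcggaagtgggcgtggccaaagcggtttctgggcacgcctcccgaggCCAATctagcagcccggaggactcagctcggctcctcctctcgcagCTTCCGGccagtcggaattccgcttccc
Cox7a1: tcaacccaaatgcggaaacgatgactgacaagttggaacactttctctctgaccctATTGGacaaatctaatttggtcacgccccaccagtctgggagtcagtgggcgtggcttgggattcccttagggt
Sdhb: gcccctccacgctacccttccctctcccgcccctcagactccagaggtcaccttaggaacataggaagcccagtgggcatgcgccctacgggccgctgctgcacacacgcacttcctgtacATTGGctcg
In these stretches each gene has 1 CCAAT box, at positions -9 to -5 for Cox6b2 and Sdhb and at -74 to -70 for Cox6b1 and Cox7a1, counted from the base before the start as -1. It reads ATTGG where it lies on the other strand, as in Cox6b2, Cox7a1 and Sdhb. Cox6b1 has a match to the ETS motif, at -28 to -22, and Sdhb has one elsewhere in its window of 300 bases. Cox6b2 and Cox7a1, which moved in opposite directions, thus both hold a CCAAT box and no other motif searched in this stretch, as does Sdhb. CCAAT lies in 37.9% of the 300-base windows of all genes, so it does not set these genes apart. The gene next to Cox6b2, Fam71e2, differed by 0.29 (limma's adjusted p 0.108), and the gene next to Cox7a1, Capns1, by 0.05 (0.727). Both were picked with their values known.

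**Figure D3:**
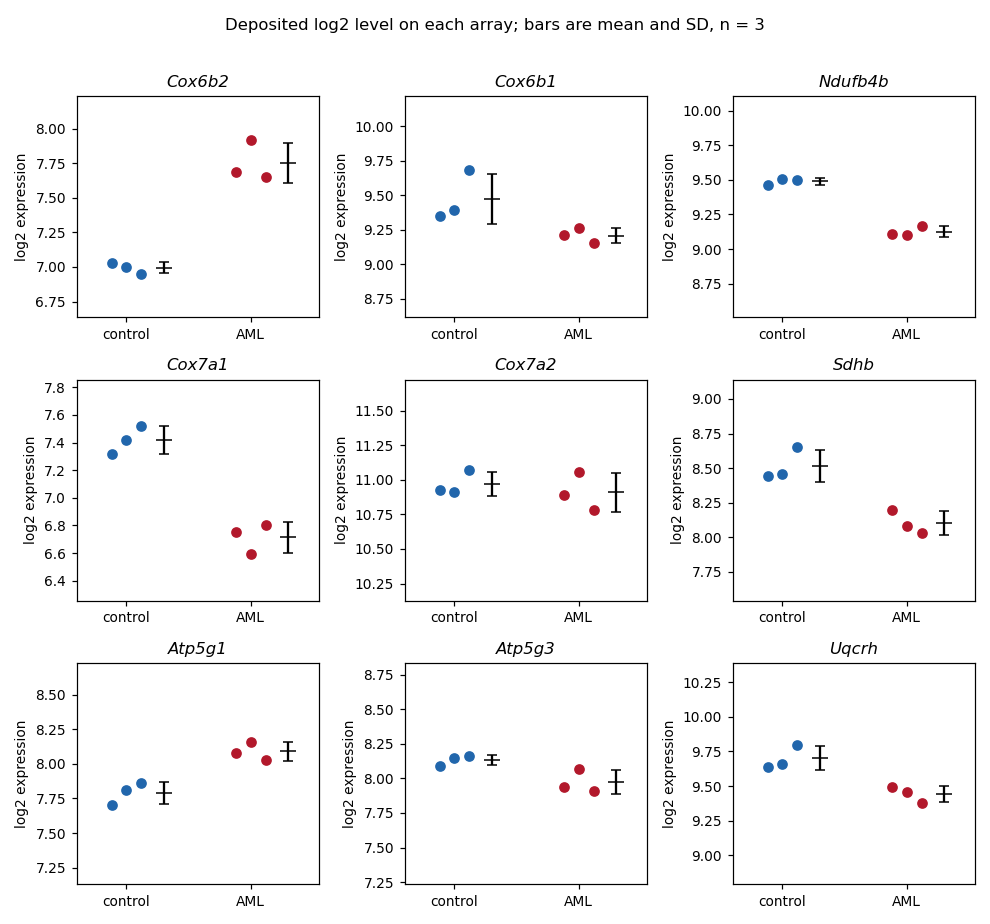
Deposited log2 level of 9 subunit genes on each array (control blue, AML red), with the mean and SD (n = 3) as black bars beside the points and each panel spanning the same number of log2 units. AML and control points are apart in Cox6b2, Cox7a1, Ndufb4b and Sdhb, which passed the threshold, and also in Cox6b1, Atp5g1, Atp5g3 and Uqcrh, which did not, and they overlap in Cox7a2.

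The other isoform pairs of complex IV did not pass. Cox4i1 differed by -0.04 and its lung isoform Cox4i2, known to respond to low oxygen, by 0.03. Cox6a1 differed by -0.10 and the muscle isoform Cox6a2 by -0.06, and Cox7b by -0.00 and its testis isoform Cox7b2 by 0.17. Limma's adjusted p was 0.749, 0.835, 0.368, 0.586, 0.982 and 0.562 for these 6 genes. Cox8a, the broad form, differed by -0.14, and the muscle isoform Cox8b by 0.18, with limma's adjusted p at 0.236 and 0.311. The testis isoform Cox8c read 5.38, 5.61 and 5.82 in AML and 5.23, 5.27 and 5.28 in control, a difference of 0.34 with a limma adjusted p of 0.0981 and a level near that of the receptor genes. Cox5b, which binds zinc, stood at 10.09 ± 0.05 in AML and 10.20 ± 0.04 in control (SD, n = 3 each). A row shared by Cox5b and Gm11273 differed by -0.33 (adjusted p 0.111 in limma's fit over every row).

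Without the isoforms, complex IV had no called member. Its 11 remaining members did not pass the threshold (1 at an unadjusted limma p under 0.05), and all 11 intervals lay within 1.5-fold. Their differences as reported were all below zero, at a median of -0.10, with Cox7b at -0.00. Over all genes 9394 of 30063 differences were below zero, and 6827 of 15032 among genes at or above the median level. Not all of the 11 kept this sign in every alternative, as Cox7b reached 0.16 and Cox4i1 0.09. The 8 tissue-restricted isoforms, Ndufa4l2 included, had a median of 0.18, with 1 rise and 1 fall (25.0% called, against 10.7% of all genes). Without these 8, the members of all complexes numbered 75, of which none rose, 2 fell and 74 (98.7%) had an interval within 1.5-fold.

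Within arrays, the ratio of both called isoforms to their broad paralogs shifted. Cox6b2 less Cox6b1 was -1.52, -1.35 and -1.5 in AML and -2.32, -2.40 and -2.73 in control, a change of 1.02, or 2.03-fold. Cox7a1 less Cox7a2 was -4.13, -4.46 and -3.98 in AML and -3.61, -3.49 and -3.55 in control, a change of -0.64, or 1.56-fold. Neither pair overlapped between the groups, and both were picked with the calls of their isoforms known. Pairs without a called gene also stood apart, namely Cox8c less Cox8a (change 0.48) and Ndufa4l2 less Ndufa4 (0.30). Of these, Ndufa4l2 was not above the receptor gene level and Cox8c was near it. The median of the receptor genes was itself 3.58, 3.56 and 3.87 in AML and 3.54, 3.34 and 3.34 in control. The part of that shift in these ratios was not tested. The groups overlapped for Cox4i2, Cox6a2, Cox7b2 and Cox8b less their broad paralogs. Such ratios show unequal change of both genes and not the amount of either protein, and they were not tested.

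**Figure D4:**
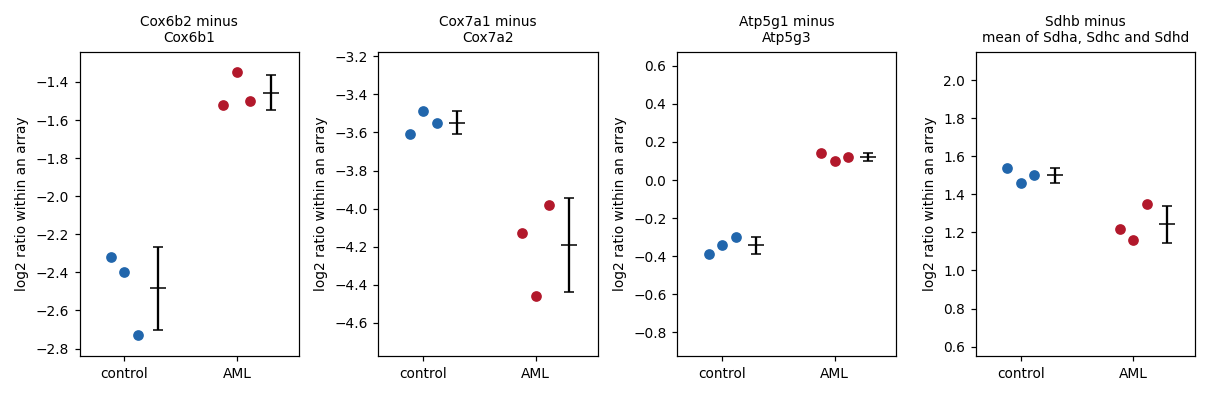
Log2 ratio between paralogs or subunits on each array (control blue, AML red), with the mean and SD (n = 3) as black bars and panels of the same height in log2 units. The groups are apart in all 4 panels, shifted upward in AML for Cox6b2 less Cox6b1 and for Atp5g1 less Atp5g3, and downward for Cox7a1 less Cox7a2 and for Sdhb less the mean of Sdha, Sdhc and Sdhd.

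Complex V had no member past the threshold, 1 of 18 (Atp5g1) at an unadjusted limma p under 0.05, and all 18 intervals within 1.5-fold. In its catalytic F1 head the 4 measured listed members (Atp5a1, Atp5b, Atp5d and Atp5e) had a median difference of 0.02, and the groups overlapped in every one. In the membrane rotor and the stalks, 10 listed members, the median was -0.11, and the groups did not overlap in 6, 5 of them lower in AML. Over all genes the groups did not overlap in 41.3%, with 13.1% lower in AML. Among genes at or above the median level these shares were 45.5% and 22.3%. The sign of the complex V shift depended on the scaling, and the contrast of head and stalks was not tested. Of the catalytic pair, chosen after their values were seen, Atp5a1 differed by -0.00 and Atp5b by 0.12, with limma's adjusted p at 0.984 and 0.374.

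Atp5g1, Atp5g2 and Atp5g3 encode the same mature c subunit of the rotor ring behind different import signals, and none of the 3 passed the threshold. Atp5g1 read 8.08, 8.16 and 8.03 in AML and 7.70, 7.81 and 7.86 in control. Its AML values were all above the controls, and the difference was 0.30 with an SE of 0.08 and a 95% interval of 0.12 to 0.49, with limma's adjusted p at 0.0539. It passed in 7 of 18 alternatives, among them the fit without AML replicate 3 (0.0499). Atp5g3 read 7.94, 8.07 and 7.91 in AML and 8.09, 8.15 and 8.16 in control, where the AML values were all below the controls (difference -0.16, limma's adjusted p 0.173). Atp5g2 differed by 0.14 (0.285), with its kept row named for another chromosome than the gene's own. Within an array Atp5g1 less Atp5g3 was 0.14, 0.10 and 0.12 in AML and -0.39, -0.34 and -0.30 in control, a change of 0.47, or 1.38-fold. Atp5g1 less Atp5g2 changed by 0.16.

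The remaining complex V genes named by the rule were Atp5md and Atp5l, which encode small subunits of the membrane sector near the dimer interface. Atp5md stood at 11.01 ± 0.07 in AML and 11.17 ± 0.09 in control (SD, n = 3 each), with limma's adjusted p at 0.198. Atp5l stood at 10.41 ± 0.14 and 10.63 ± 0.13 (SD, n = 3 each), and its adjusted p was 0.184. The kept row of Atp5l is named for another chromosome than the gene's own, and the 2 rows on the gene's own chromosome differed by -0.29 and 0.07, so its rows disagree in sign.

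**Figure D5:**
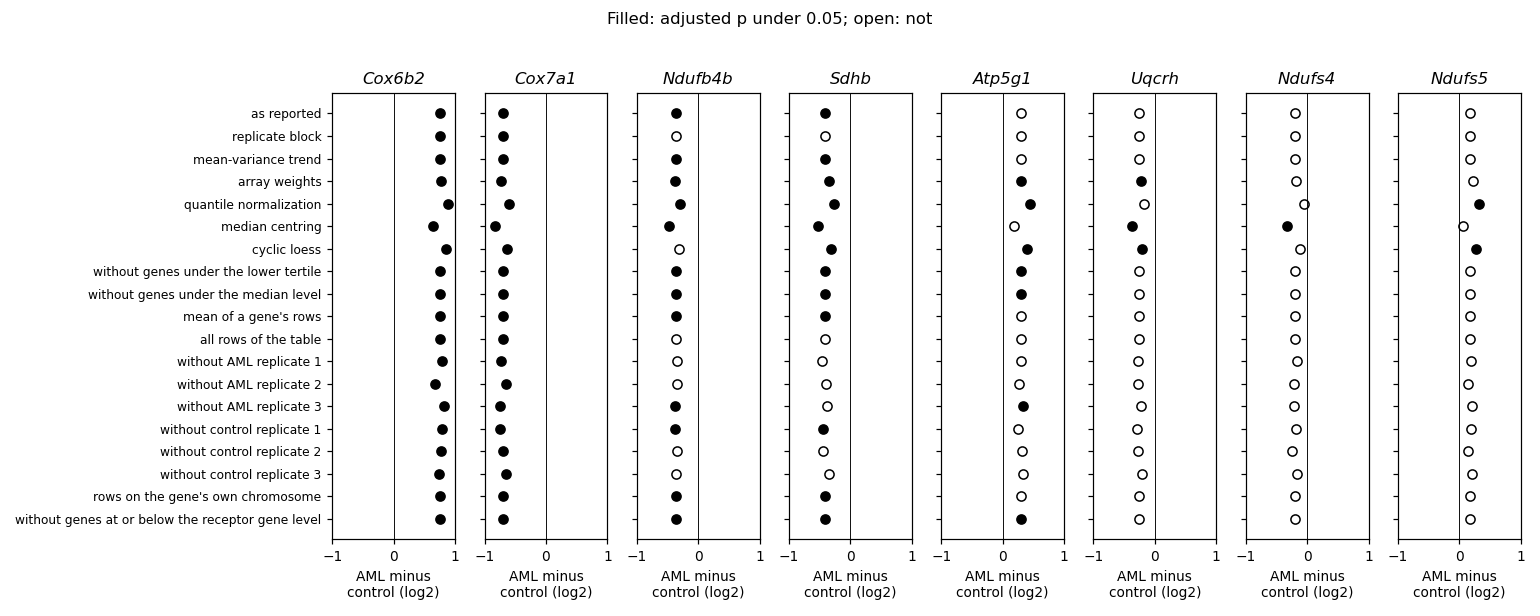
Difference (AML minus control, log2 units) of 8 subunit genes in the fit as reported and in 18 alternatives, with filled points where limma's adjusted p was under 0.05. Cox6b2 and Cox7a1 are filled throughout, Ndufb4b and Sdhb in 11 alternatives each, Atp5g1 in 7, Uqcrh in 3, Ndufs5 in 2 and Ndufs4 in 1.

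Some promoters of the members carried motifs of factors known to regulate respiratory genes, each motif in a minority of the windows. A RefSeq window of 300 bases, from 250 before to 50 after the start, was held for 67 of the 83 members, and both strands were searched. The NRF1 motif, GCGCA and GCGC separated by any 1 base, was present in 14 of the 67 windows (20.9%), against 4.78% of 27025 windows of all genes and 6.60% of 17491 windows of protein-coding genes. The ETS motif CCGGAAG, which GABP binds, was in 16 (23.9%, against 9.12% and 11.9%), and the YY1 motif AAGATGG in 11 (16.4%, against 6.48% and 6.37%). The estrogen-related receptor motif AAGGTCA was in 7 (10.4%, against 4.66% and 4.08%). CCAAT stood in 29 (43.3%, against 37.9% and 39.0%) and TATAAA in 8 (11.9%, against 14.2% and 13.3%). The windows held a median of 19.0 CpG, where all genes had 7.0 and protein-coding genes 13.0. The NRF1 and ETS motifs contain CG themselves, and the windows compared were not matched for CpG. Only 4 of the 8 tissue-restricted isoforms had a window. None of these 4 held an NRF1, ETS, YY1 or estrogen-related receptor match, 3 held CCAAT and 2 TATAAA, and their median was 8.5 CpG. With motifs this rare among protein-coding genes, 4 windows are too few for a contrast with the other members.

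Of 18 measured regulators of mitochondrial genes, out of 20 listed, 3 rose and 1 fell, with a median difference of 0.02. That is 22.2% called, against 10.7% of all genes, in a short list that was not tested as a set. Tefm, the elongation factor of mitochondrial transcription, rose by 0.45, and Pprc1, a coactivator of NRF1 and GABP, by 0.41, with limma's adjusted p at 0.0161 and 0.0381. Gabpb1, a subunit of GABP, fell by 0.43 (0.0178). Myc rose by 0.91 (limma's adjusted p 0.0454), from 7.26, 7.25 and 7.19 in control to 8.43, 8.42 and 7.58 in AML, where replicate 3 stood nearest to the controls. Nrf1, Gabpa and Yy1, chosen for their motifs, differed by -0.19, -0.13 and -0.22 and did not pass (limma's adjusted p 0.277, 0.276 and 0.215).

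Assembly factors were called in 7.50% of cases, against 10.7% of all genes. Of 40 measured assembly factors, out of 47 listed, 2 rose, 1 fell and 37 did not pass, with a median of 0.12. Bcs1l, which inserts the Rieske protein into complex III, rose by 0.32, and Ndufaf3, a complex I assembly factor, by 0.44, with limma's adjusted p at 0.0343 and 0.0353. Ndufaf7, a methyltransferase acting on complex I, fell by 0.55 (0.0362). Of 13 measured electron carriers and enzymes of ubiquinone synthesis, out of 15, 2 rose and 1 fell (23.1% called), with a median of 0.05. Dhodh, a pyrimidine synthesis enzyme that passes electrons to ubiquinone, rose by 0.36 and Coq3, a methyltransferase of ubiquinone synthesis, by 0.40, whereas Gpd2, the mitochondrial glycerol phosphate dehydrogenase, fell by 0.33 (limma's adjusted p 0.0260, 0.0296 and 0.0250). Each of the 10 called genes in these 3 lists lost its call in at least 3 of 18 alternatives, and each lost it without AML replicate 2 and without control replicate 2.

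Neither the carriers of ATP nor the tricarboxylic acid cycle had a member past the threshold. Of 12 measured genes for ATP export and other inner membrane carriers, out of 13, limma called none, with 1 at an unadjusted p under 0.05 and a median of 0.07. Of 17 measured cycle genes, out of 18, it also called none, with 5 at an unadjusted p under 0.05 and a median of 0.09. Of 8 measured subunits that the naming rule does not reach, such as Cyc1 and Ndufab1, none passed and none had an unadjusted p under 0.05. Atp5md is counted in that list as well as among the members. These 8 included 5 mitochondrially encoded subunits, whose SE reached 0.412, the largest being that of ND6 (7.43, 7.12 and 8.77 in AML against 7.97, 7.36 and 7.89 in control), so that only large changes could pass for ND6 and similarly for ND2 and ND3, whereas the SE of COX1 was 0.121 and that of COX2 0.160. For scale, 5 of 75 mitochondrial ribosomal protein genes rose and none fell (median 0.14), and of 52 cytosolic ones 2 rose and 1 fell (median 0.11). These are 6.67% and 5.77% called, against 10.7% of all genes.

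Markers of other marrow cells moved with the groups. None of 11 megakaryocyte markers passed the threshold, and their log2 summed level was 13.78 to 14.29 in AML and 13.82 to 14.22 in control. They were measured with little precision, at a median SE of 0.208 against 0.098 over all genes. Only 2 of their 11 intervals lay within 1.5-fold, and 9 differences were above zero and 2 below. The lack of calls is thus not a measure of equal levels. Of 8 neutrophil markers 7 fell (12.33 to 12.76 against 14.08 to 14.32), and of 11 monocyte and macrophage markers 8 fell (12.52 to 13.00 against 12.98 to 13.14). Of 5 B lineage markers 4 fell (7.73 to 7.81 against 8.25 to 8.36) and of 5 erythroid markers 2 fell (7.80 to 7.98 against 8.32 to 8.46), while 1 of 5 granulocyte-monocyte progenitor markers rose (12.11 to 12.37 against 11.67 to 12.06). No gene of the megakaryocyte, neutrophil, monocyte or progenitor lists was at or below the receptor gene level, whereas 2 erythroid and 1 B lineage marker were. These lists moved in the same arrays as the rise of Cox6b2 and the falls of Cox7a1, Sdhb and Ndufb4b, and their part in those results was not tested.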

How the data were processed

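Megakaryocyte RNA from 3 samples of AML mice and 3 of control mice was measured on Affymetrix arrays. The authors deposited log2 expression values, made with RMA per the submitters' processing notes. The version of RMA and the genome build of the array are not given in the sources used here. Of 72688 rows, 30604 had 1 platform gene symbol and 2146 had several and named no gene. Names were updated through RefSeq (GRCm38.p6): 22815 by gene number, 7479 by symbol, 308 by synonym, and 2 did not match. Of 429 genes with several rows the row with the highest mean was kept, which left 30063 genes, 83 of them members.

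All genes were fitted with limma (lmFit and eBayes, no trend, no covariate, no filter, two-sided, Benjamini-Hochberg, threshold 0.05), and the fit was tested on simulated data. Members were counted and not retested. The members and lists were chosen with earlier results of these data known. Named with values were all called members, per complex the 2 with the highest mean, the largest rise and the largest fall, isoform sets, the 4 Sdh genes and up to 4 called genes of each pathway list. Any other gene was picked with its value known. The alternatives are given with their effect in the closing section. The 3 arrays per group limit the precision.

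Replicate numbers are shared between the groups. Deviations of same-numbered arrays from their group means correlated across genes at -0.36, 0.142 and -0.291, so the numbers were not taken as pairs. Figures were drawn with matplotlib 3.10.9. Values were handled in Python 3.11.15 with numpy 2.4.6 and pandas 2.3.3, and the fits ran in R 4.3.3 with limma 3.58.1 and the data.table package (1.17.8).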

Additional observations from a re-analysis of the deposited data

How the results depend on the processing

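Cox6b2 and Cox7a1 kept their call in every alternative fitted, while 75 members passed in none. The count of members that rose was 1 as reported, 2 with array weights, 3 with renewed quantile normalization, 3 with cyclic loess, 2 without genes under the lower tertile or under the median level, 2 without genes at or below the receptor gene level, and 0 without the tissue-restricted isoforms. The count that fell was 3 as reported, 5 with median centring, 1 with all rows of the table and 1 with a minimum of 1.5-fold. Higher and lower calls thus stood at 1 and 3 as reported, 3 and 3 after quantile normalization or cyclic loess, and 1 and 5 after median centring. Leaving out 1 array at a time gave 1 to 2 rises (2 without AML replicate 3) and 1 to 3 falls (1 without AML replicate 1, AML replicate 2, control replicate 2 or control replicate 3). Sdhb also lost its call with all rows (0.0717), and Ndufb4b with all rows (0.0538) and cyclic loess (0.0546). Atp5g1 passed with array weights (0.0169), quantile normalization (0.00852), cyclic loess (0.0115) and each of the 3 filters on dim genes (0.038, 0.0366 and 0.0378).

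Medians of the complexes relative to all genes, as reported, were -0.134, -0.295, -0.084, -0.173 and -0.194 for I to V. After quantile normalization they were 0.040, -0.133, 0.143, 0.001 and 0.027. After cyclic loess those of complexes I, III and V were -0.000, 0.097 and -0.033, and without genes at or below the receptor level the 5 medians were -0.048, -0.201, 0.010, -0.086 and -0.100. Leaving out 1 array kept all 5 below zero but moved 3 of them by over 1.5 times: complex I to -0.067 without control replicate 3, complex II to -0.187 without AML replicate 3, and complex III to -0.016 without control replicate 3, -0.034 without AML replicate 3, and -0.154, -0.146 and -0.192 without AML replicate 1, AML replicate 2 and control replicate 1. The cause of these shifts was not tested. With the replicate number as a block, 1 member rose and 1 fell, so the calls of Sdhb and Ndufb4b were lost. The numbers are not taken to pair the samples, since no array correlated best with the array of its own number. The receptor filter, the rows on a gene's own chromosome and the fit without the pseudogene Atp5l2-ps were chosen after seeing the data.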
